A study of Mus musculus with 7 samples.

Results

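The genes described here build and remodel actin filaments in macrophages of the injured sciatic nerve. They were chosen by gene symbol as 38 of the 23361 genes quantified by RNASeq, and all 38 passed the expression filter that left 12858 genes for testing. Macrophages were sorted as Lin-F4/80+CD14+CD11b+CD16/32+ cells from the regenerative bridge of wild-type BALB/cJ mice, whose left sciatic nerve had been transected and repaired with a conduit. There were 3 libraries at day 5, 2 at day 14 and 2 at day 28 after the repair. All mice were injured and carried no deletion, so each comparison is between times after injury, and no uninjured nerve was analysed here. The age of these mice, and whether a library held cells of 1 mouse or of a pool, were not given in the sources used here, so p-values measure the spread between these libraries, which may be technical.

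Actin monomers assemble into filaments that push the membrane forward, and each step has its own proteins. The Arp2/3 complex starts branches and formins extend unbranched filaments, while cofilin and profilin recycle monomers and crosslinkers such as alpha-actinin hold filaments together. Macrophages use these proteins to crawl, to engulf debris and to form podosomes, which are small adhesions with an actin core inside a ring of vinculin, talin and paxillin that break down matrix. In bulk RNA a lower value can stem from less RNA per cell or from fewer cells of a type, and these cannot be told apart.

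A CArG box was found for 3 members in the 250 bases before the transcription start, and these sequences are shown because this is the site bound by serum response factor, whose classic targets are actin genes. RefSeq promoters on GRCm38 were searched for 32 members. None was searched for Actb, Cttn, Coro1b, Diap1, Plec or Pxn, which does not show that these genes lack an entry or a box. The box was searched as CC followed by 6 bases that are A or T and by GG, a pattern that reads alike on both strands. It was present in 3 of the 38 promoters of these members and in 1.47% of all 32851 promoters (482 promoters). Capitals mark the box, and bases that lie in an annotated exon on either strand were left out, which shortened the Actg1 window to 135 bases.
Actg1, chr11:120348543-120348677, minus strand: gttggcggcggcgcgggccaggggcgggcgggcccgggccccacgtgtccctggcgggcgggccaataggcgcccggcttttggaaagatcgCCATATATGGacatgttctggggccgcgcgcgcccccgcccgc
Vcl, chr14:20929148-20929397, plus strand: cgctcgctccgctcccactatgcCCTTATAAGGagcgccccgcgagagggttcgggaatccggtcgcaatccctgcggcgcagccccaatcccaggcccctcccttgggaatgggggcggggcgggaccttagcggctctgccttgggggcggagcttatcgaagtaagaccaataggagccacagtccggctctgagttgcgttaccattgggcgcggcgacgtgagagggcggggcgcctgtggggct
Myo1e, chr9:70207100-70207349, plus strand: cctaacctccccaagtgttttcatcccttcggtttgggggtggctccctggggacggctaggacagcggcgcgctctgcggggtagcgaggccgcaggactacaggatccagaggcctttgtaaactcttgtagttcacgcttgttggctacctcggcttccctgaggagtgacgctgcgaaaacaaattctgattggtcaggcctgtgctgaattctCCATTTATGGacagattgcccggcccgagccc
The box began 90 bases before the start of Actg1, 227 before that of Vcl and 32 before that of Myo1e. A match describes these letters and does not show binding.

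Libraries held 18027190 to 35247116 fragments within genes. The 38 members took 2.86% to 3.46% of them, and Actb and Actg1 alone 0.720% to 1.17%. The markers of the sort were present in every library, with a summed level of the macrophage list of 16571 to 22566 FPKM (fragments scaled by transcript length and library size). Most of that sum was Lyz2 (10675 to 18377 FPKM), and single markers moved. Compared with day 5, at day 28 Emr1, which codes for F4/80, had fallen by 1.01, Cd14 by 0.76 and Fcgr1 by 1.73 on the log2 scale (edgeR adjusted p = 0.0065, 0.0145 and 0.0021), and Cd14 had fallen by 0.75 at day 14 (adjusted p = 0.0357). Their part in the members' changes was not tested. The T cell, B cell, Schwann cell and skeletal muscle lists stayed at or under 1.39 FPKM in sum. The 2 libraries of day 28 differed from each other with GC content of the transcript (Pearson r -0.391 across 7399 genes, which are not independent replicates), while the other pairs of the same day lay between -0.08 and 0.01. The medians and the members called at day 28 are therefore also given with GC offsets, an alternative chosen after seeing the data.

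Most of the machinery was abundant at all times. Averaged over the 3 time points, 4 members lay above 1000 FPKM, 23 between 100 and 1000, 10 between 10 and 100, and 1 below 10. The 4 most abundant were the cytoplasmic actins Actb (3500 FPKM) and Actg1 (1982 FPKM), the monomer-binding profilin Pfn1 (1577 FPKM) and the severing protein cofilin Cfl1 (1208 FPKM). Each of the 7 libraries had these 4 in that order. The lowest member was Cttn, the cortactin that binds branch points in many other cell types, at 2.40 to 3.93 FPKM. Libraries of the same day agreed closely for most members, with a median coefficient of variation of 5.60% at day 5, 6.25% at day 14 and 7.29% at day 28.

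**Figure D1:**
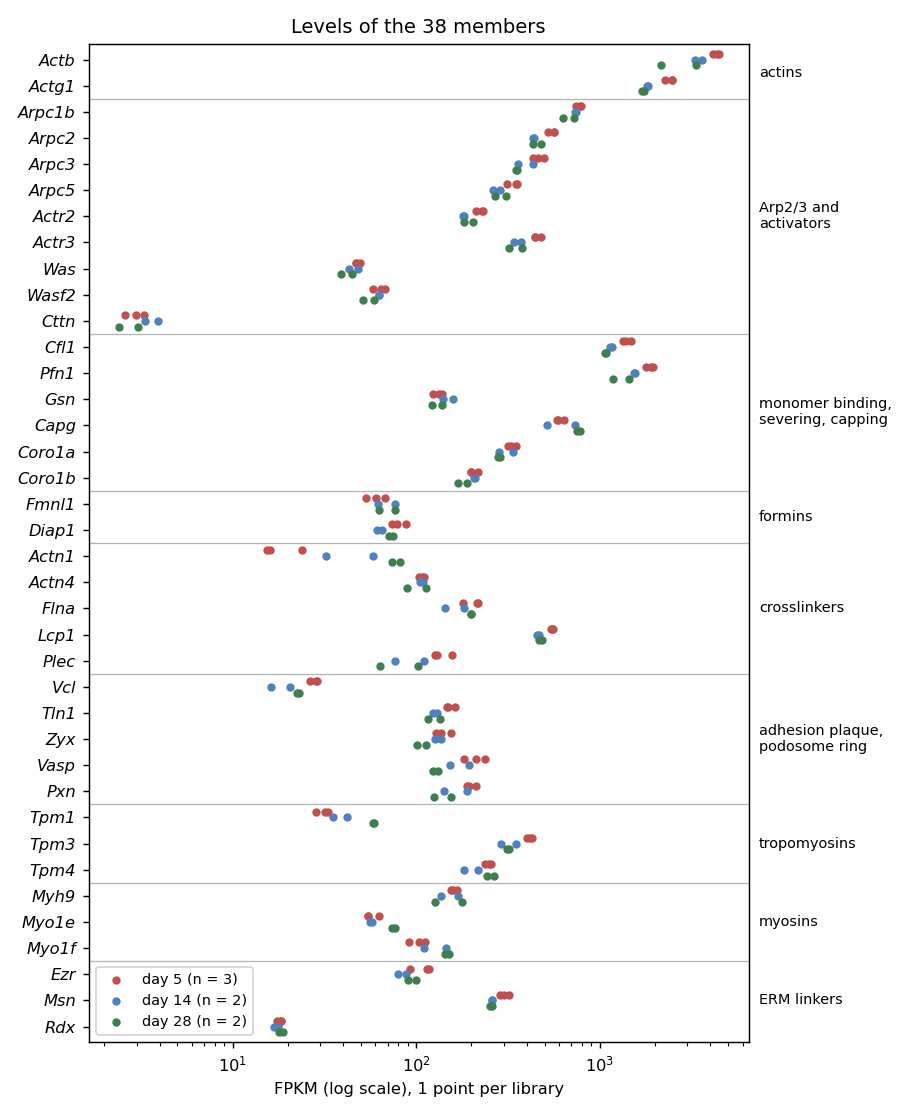
FPKM of the 38 members on a log scale, grouped by role, with 1 point per library (3 at day 5, 2 at day 14, 2 at day 28). Cttn lies at 2.40 to 3.93 FPKM and Actb at 2150 to 4438, and Actn1 has the widest spread between days.

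Between day 5 and day 28, 4 members rose and 4 fell. Actn1 and Tpm1, which code for an actin crosslinker and a tropomyosin, rose the most, and 2 class I myosins, Myo1e and Myo1f, rose less. Both actins, Pfn1 and Vasp fell. The other 30 members were not called at an adjusted p under 0.05 (edgeR quasi-likelihood F test with p-values adjusted by Benjamini-Hochberg across all genes tested), and the test called 15.2% of all genes tested. The members' share of 21.1% is thus not far from that of all genes, and for each direction 4 of 38 stands beside 7.74% of all genes called higher and 7.51% called lower. Between day 5 and day 14 only Actn1 rose and only Vcl fell, where 4.78% of all genes were called (2.84% higher and 1.94% lower). Between day 14 and day 28 none of the 38 was called (edgeR, with 6 at an unadjusted p under 0.05), where 0.0622% of all genes were called; DESeq2 called 1.

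Although few members passed the test singly, most lay a little lower at the later times. From day 5 to day 14, 29 of 38 log2 fold changes were below 0 with a median of -0.23, against 47.1% and a median of 0.03 over all genes tested. From day 5 to day 28, 31 were below 0 with a median of -0.19, against 46.8% and a median of 0.03. These comparisons share the day 5 libraries, so they do not stand for each other. Both libraries of day 14 were below all 3 of day 5 for 19 members and above them for 4, where 21.4% and 21.9% of all genes tested did so. Both libraries of day 28 were below all 3 of day 5 for 22 members (57.9%) and above them for 5, where 25.6% and 26.0% of all genes did so. With GC offsets the medians were -0.13 and -0.11, while that of all genes moved to 0.09 and 0.10. The distance of the members' median from that of all genes was then -0.22 in both comparisons, compared with -0.26 and -0.23 without the offsets. Members were also set beside genes of like level, cut at a mean of 300 FPKM over the libraries. Above it the medians at day 28 were -0.37 for 13 members and -0.085 for all 298 genes tested. At or below it they were -0.13 for 25 members and 0.036 for all 12560. At day 14 they were -0.27 and 0.009 above the cut, and -0.065 and 0.027 at or below it.

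**Figure D2:**
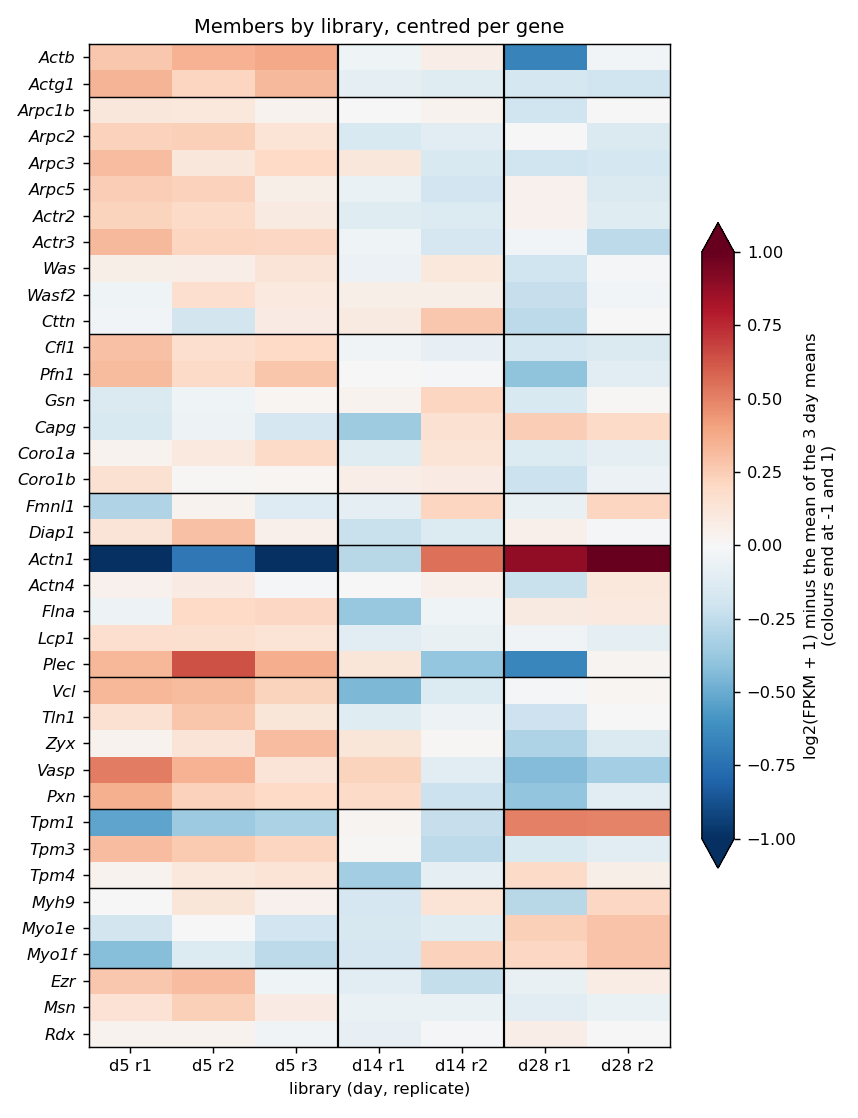
Level of each member (rows, by role) in each library (columns), as log2(FPKM + 1) minus the mean of the 3 day means, with red above and blue below that mean. Most rows turn from red at day 5 to blue later, whereas Actn1, Tpm1, Myo1e, Myo1f and Capg are red in both libraries of day 28. Tpm4 and Flna are faintly red in both, and Actb and Plec are bluest in the first library of day 28.

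The actins make up the filaments themselves. Actb (chr5:142903115-142906754 on GRCm38, the build of all positions given) was at 4119, 4348 and 4438 FPKM at day 5, at 3308 and 3583 at day 14, and at 2150 and 3354 at day 28. The first library of day 28 was far below the second, and both lay below every library of day 5. Actb fell by 0.63 ± 0.18 on the log2 scale from day 5 to day 28 (SE, n = 3 and 2, edgeR adjusted p = 0.045). Actg1 (chr11:120345690-120348542) was at 2476, 2277 and 2458 FPKM at day 5, at 1839 and 1806 at day 14, and at 1734 and 1706 at day 28. Its groups did not overlap, the libraries of the same day were close, and the mean of day 14 (1823 FPKM) was nearer to that of day 28 (1720) than to that of day 5 (2404). From day 5 to day 28 it decreased by 0.47 ± 0.12 log2 units (SE, edgeR adjusted p = 0.0267). Without the first library of day 28 the change of Actb was -0.35 with an adjusted p of 0.209, and with GC offsets it was -0.54 with an adjusted p of 0.0335 (edgeR). How well reads tell Actb and Actg1 apart was not examined. How reads with several matches were shared was not stated, so the split between both genes is uncertain. In sum they took 6595 to 6897 FPKM at day 5, 5147 to 5390 at day 14 and 3884 to 5060 at day 28.

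The Arp2/3 complex and its activators gave no call in any comparison (edgeR). These were 6 subunits (Arpc1b, Arpc2, Arpc3, Arpc5, Actr2 and Actr3) and 3 genes that activate or stabilise the complex (Was, Wasf2 and Cttn). All 9 log2 fold changes from day 5 to day 28 were below 0, between -0.38 and -0.12. Both libraries of day 28 were below all of day 5 for 7 of the 9, where 25.6% of all genes tested did so. Arpc3 had means of 463 ± 32.2 FPKM at day 5 (SD, n = 3) and 352 ± 4.98 at day 28 (SD, n = 2), and Actr3, which forms the branch base with Actr2, had 455 ± 20.7 and 347 ± 39.6. Their adjusted p-values were 0.0668 and 0.0682 (edgeR), while DESeq2 called both, at 0.0284 and 0.018. The authors' quantification failed for Actr3 in the first library of day 28. Was, the activator of blood cells whose loss impairs podosomes, lay between 39.1 and 49.3 FPKM in all libraries, and Wasf2 of the WAVE complex between 51.0 and 67.6.

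Among the proteins that bind monomers, sever or cap filaments, only Pfn1 was called by edgeR. Pfn1 (chr11:70651850-70654644), which charges monomers for growth, was at 1937, 1781 and 1890 FPKM at day 5, at 1560 and 1534 at day 14, and at 1181 and 1448 at day 28. The 3 groups did not overlap and followed the order of time. Pfn1 decreased by 0.50 ± 0.13 on the log2 scale from day 5 to day 28 (SE, edgeR adjusted p = 0.0316). Cfl1 had means of 1399, 1151 and 1074 FPKM in the order of the days, and its difference of -0.37 ± 0.11 from day 5 to day 28 missed the threshold (SE, edgeR adjusted p = 0.0567), while DESeq2 called it (adjusted p = 0.00917). Capg, a capping protein abundant in macrophages, had means of 605 ± 27.4 (SD, n = 3), 624 ± 155 (SD, n = 2) and 767 ± 20.8 FPKM (SD, n = 2). Its difference between day 28 and day 5 was 0.37 ± 0.16 on the log2 scale (SE, edgeR adjusted p = 0.147). Gelsolin (Gsn, 122 to 158 FPKM) and the coronins Coro1a (278 to 351 FPKM) and Coro1b (169 to 217 FPKM) were not called either. The formins Fmnl1 (53.3 to 76.7 FPKM) and Diap1 (61.2 to 87.8 FPKM) overlapped between days 5 and 28.

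Actn1 was the member with the largest change. It codes for alpha-actinin 1, which crosslinks filaments and links them to integrin adhesions, and lies at chr12:80167547-80260371 on the minus strand. Its level was 15.3, 23.8 and 16.01 FPKM at day 5, 32.4 and 58.4 at day 14, and 74.2 and 82.1 at day 28. The groups did not overlap, and the libraries of day 14 were far apart from each other. It rose by 1.32 ± 0.25 on the log2 scale to day 14 (SE, edgeR adjusted p = 0.0268) and by 2.10 ± 0.25 to day 28 (SE, adjusted p = 0.00183), which is 4.30-fold. The further difference of 0.78 ± 0.28 from day 14 to day 28 was not called (edgeR adjusted p = 0.309). It ranged from 0.42 to 1.28 over the alternatives, and without the second library of day 14 it was called at the upper end of that range (adjusted p = 0.0115). Exons of Gm47766 and Gm47767 overlap it on the opposite strand, and whether strand was used in counting was not stated.

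None of the other 4 crosslinkers was called by edgeR, while DESeq2 called Plec at day 28. Actn4, the second alpha-actinin of non-muscle cells, lay between 89.4 and 113 FPKM with a difference of -0.08 ± 0.13 on the log2 scale from day 5 to day 28 (SE, edgeR adjusted p = 0.725). The ratio of Actn1 to Actn4 in FPKM was 0.142, 0.215 and 0.155 at day 5, 0.310 and 0.538 at day 14, and 0.830 and 0.729 at day 28. This pair was chosen after its values were seen, and no test was made of it. Flna, the filamin that makes filament networks, ranged from 144 to 216 FPKM and Lcp1, the leukocyte plastin, from 457 to 555, both without a call. Plec, which ties actin to intermediate filaments, had means of 138 ± 16.7 FPKM at day 5 (SD, n = 3) and 83.1 ± 27.5 at day 28 (SD, n = 2), where its libraries were apart at 63.6 and 103 FPKM. Its difference of -0.72 ± 0.22 on the log2 scale was not called (SE, edgeR adjusted p = 0.0606; DESeq2 adjusted p = 0.006). It ranged from -1.10 to -0.41 over the alternatives and was called in 3 of the 7 fits without 1 library. The authors' quantification failed for Plec in 3 libraries, the first 2 of day 5 and the first of day 14, and Plec shares exon bases with Parp10.

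**Figure D3:**
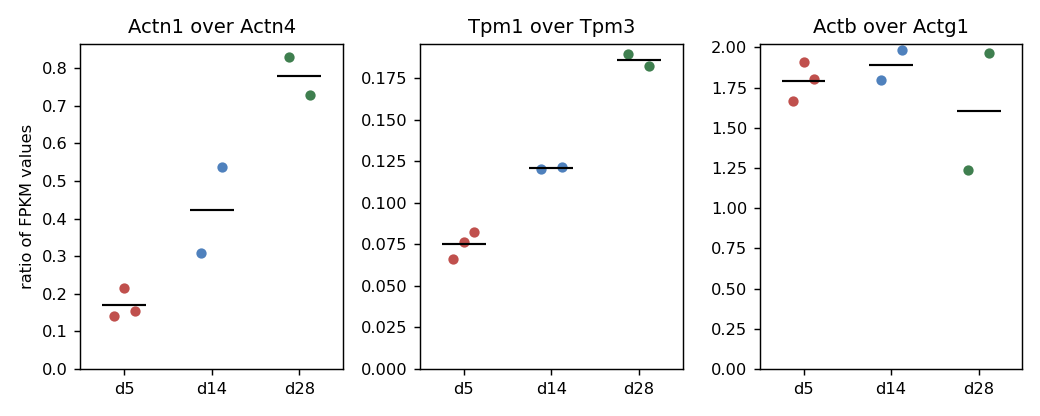
Ratios of FPKM values within each library by day, with a line at the mean of a day (3 libraries at day 5, 2 at days 14 and 28). Actn1 over Actn4 goes from 0.142 to 0.215 at day 5 up to 0.729 and 0.830 at day 28, Tpm1 over Tpm3 from 0.0662 to 0.0822 up to 0.182 and 0.190, and Actb over Actg1 is 1.24 in 1 library and 1.66 to 1.98 in the others.

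The proteins of adhesion plaques and of the podosome ring all had fitted changes below 0 at both later times, and of these Vcl at day 14 and Vasp at day 28 passed the test. Vinculin, coded by Vcl (chr14:20929398-21033676), strengthens the link of talin to actin, and was at 28.7, 28.4 and 26.5 FPKM at day 5, at 16.2 and 20.5 at day 14, and at 22.4 and 23.0 at day 28. It was lowest at day 14 and stood between both levels at day 28, with no overlap between the 3 groups. Vcl decreased by 0.59 ± 0.13 on the log2 scale to day 14 (SE, edgeR adjusted p = 0.0366), while its difference to day 28 was -0.28 ± 0.12 (SE, adjusted p = 0.157). Vcl shares exon bases with Ap3m1 on the opposite strand. Vasp (chr7:19256929-19271817), which speeds filament elongation, was at 238, 213 and 183 FPKM at day 5, at 195 and 154 at day 14, and at 123 and 131 at day 28. Day 14 overlapped with day 5, whereas both libraries of day 28 lay below all others. Vasp decreased by 0.72 ± 0.15 on the log2 scale to day 28 (SE, edgeR adjusted p = 0.0163). The other 3 of the list had differences of -0.50 ± 0.15 for paxillin (Pxn), -0.37 ± 0.13 for zyxin (Zyx) and -0.27 ± 0.12 for talin 1 (Tln1) from day 5 to day 28 (SE). For all 3 both libraries of day 28 were below every library of day 5, where 25.6% of all genes tested did so. The adjusted p-values of Pxn, Zyx and Tln1 were 0.059, 0.0767 and 0.164 (edgeR), while DESeq2 called Pxn (0.0139) and Zyx (0.0354).

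Tropomyosins lie along filaments and decide which proteins can bind there. Tpm1 (chr9:67022590-67049406) was at 28.3, 31.8 and 33.0 FPKM at day 5, at 42.0 and 35.1 at day 14, and at 58.9 and 58.5 at day 28. The groups did not overlap, and the libraries of day 28 were nearly equal. Tpm1 rose by 0.94 ± 0.12 on the log2 scale from day 5 to day 28, or 1.92-fold (SE, edgeR adjusted p = 0.00191). Tpm3, the most abundant form, had means of 415, 318 and 316 FPKM, and its difference of -0.38 ± 0.12 on the log2 scale was not called (SE, edgeR adjusted p = 0.0657), while DESeq2 called it (adjusted p = 0.02). Tpm4 ranged from 182 to 264 FPKM and its libraries of day 28 overlapped with those of day 5. The ratio of Tpm1 to Tpm3, chosen after its values were seen, was 0.0662, 0.0766 and 0.0822 at day 5, 0.121 and 0.122 at day 14, and 0.190 and 0.182 at day 28.

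Of the myosins, the 2 class I motors, which link membranes to actin at podosomes and phagocytic cups, rose. Myo1e (chr9:70207350-70399766) was at 54.9, 62.7 and 54.7 FPKM at day 5, at 56.0 and 57.5 at day 14, and at 74.2 and 76.6 at day 28. Days 5 and 14 overlapped and day 28 lay above both, with a rise of 0.41 ± 0.11 on the log2 scale from day 5 (SE, edgeR adjusted p = 0.0411). Myo1f (chr17:33555707-33607764), the form of leukocytes, was at 91.7, 112 and 103 FPKM at day 5, at 110 and 145 at day 14, and at 143 and 150 at day 28. One library of day 14 was as low as day 5 and the other as high as day 28. Myo1f rose by 0.53 ± 0.15 on the log2 scale from day 5 to day 28 (SE, edgeR adjusted p = 0.0411). Myh9, the heavy chain of non-muscle myosin II that contracts filaments, had nearly equal means of 160, 153 and 152 FPKM. The ERM proteins tie the membrane to filaments and gave no call. Msn, the main one here, was at 253 to 322 FPKM, Ezr at 80.0 to 118 and Rdx at 16.8 to 18.8.

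**Figure D4:**
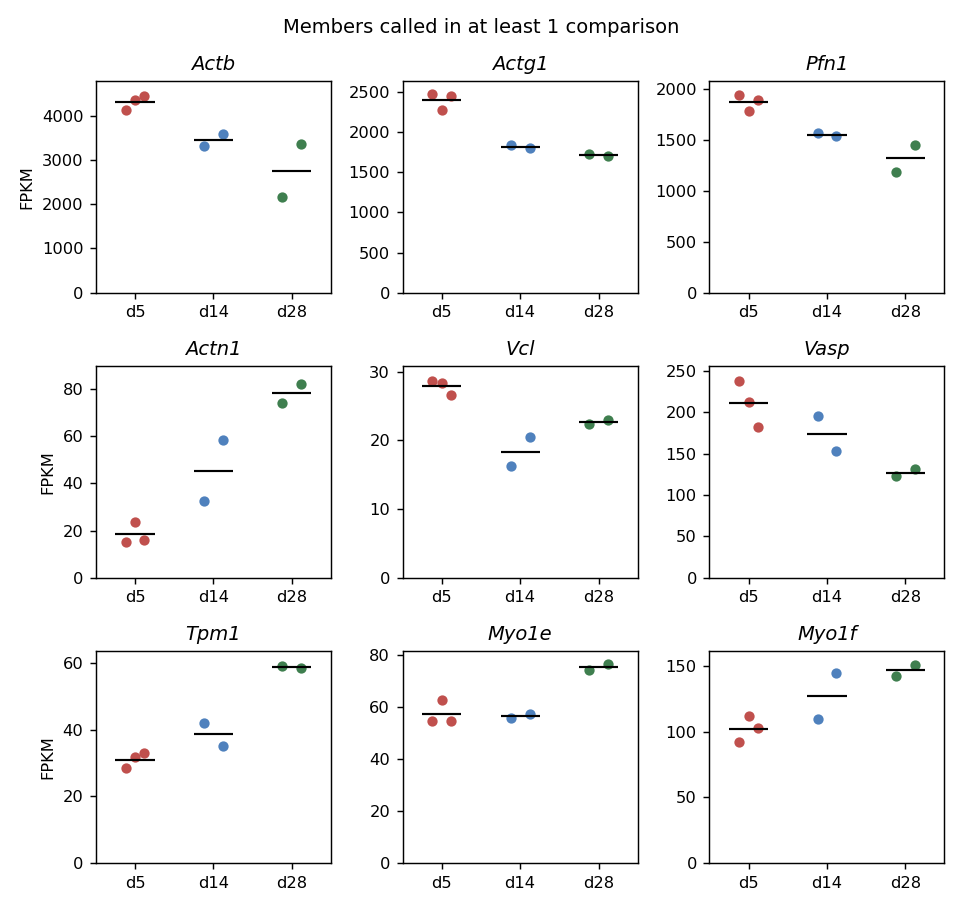
FPKM in each library (points) and the mean of each day (lines) for the 9 members called in at least 1 comparison, with 3 libraries at day 5 and 2 each at days 14 and 28. Actn1, Tpm1, Myo1e and Myo1f are highest at day 28, Actb, Actg1, Pfn1 and Vasp are lowest there, and Vcl is lowest at day 14.

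**Figure D5:**
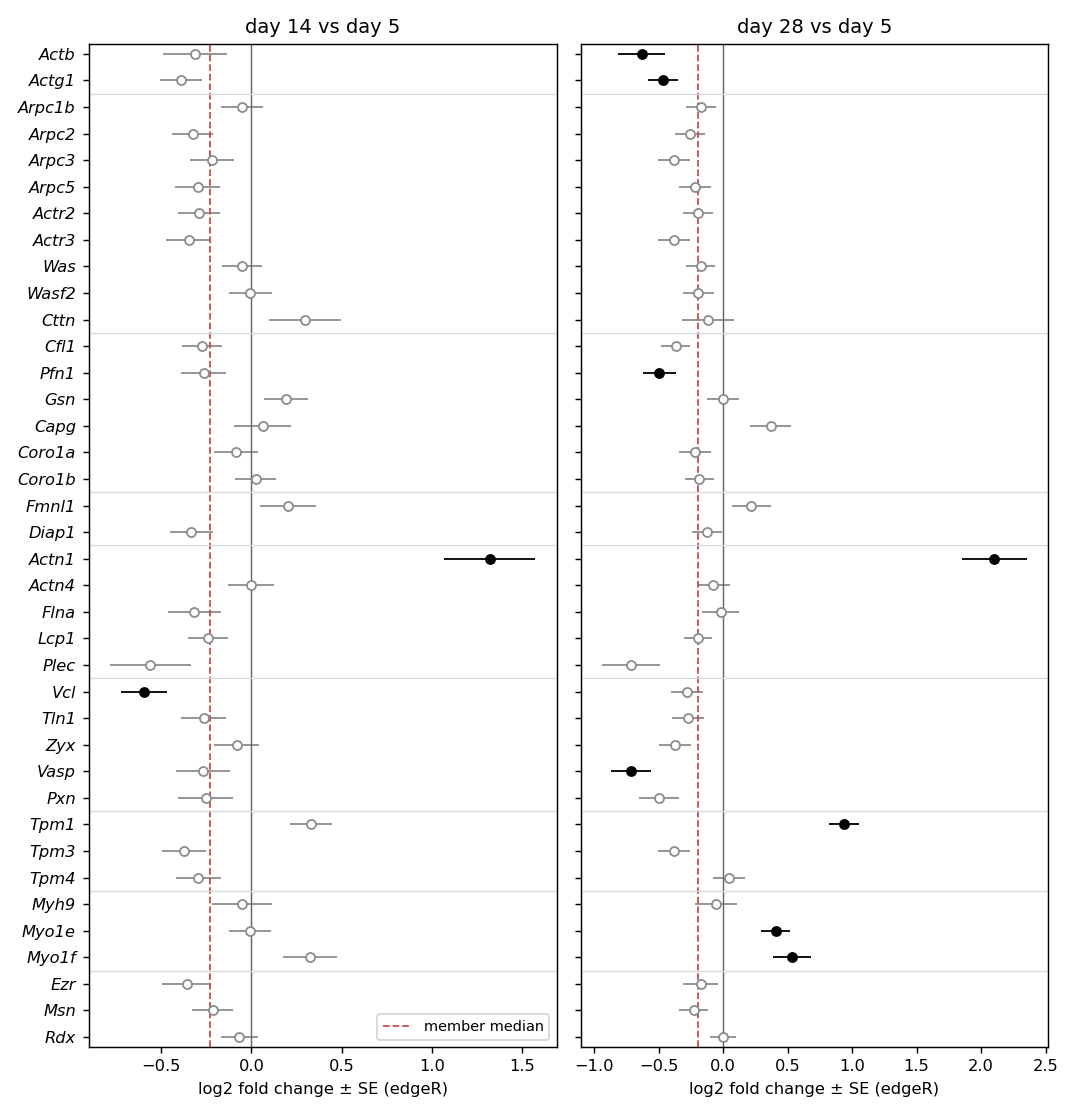
Fitted log2 fold change with its SE for each member from day 5 to day 14 (left) and to day 28 (right), where filled points are called at an adjusted p under 0.05 and the dashed line is the median of the members. The median is -0.23 on the left and -0.19 on the right, and Actn1 stands apart at 1.32 and 2.10.

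The calls differed in how much they rested on single libraries. Actn1 and Tpm1 were called from day 5 to day 28 with each of the 7 libraries left out in turn, with adjusted p-values up to 0.0217 and 0.0242 (edgeR). The other 6 calls of that comparison were each lost when the first library of day 28 was left out. That fit held 1 library of day 28, and calls over all genes fell in it as well. The difference of Actb was then -0.35 against -0.63 in the main fit, and that of Pfn1 -0.36 against -0.50. Those of Actg1 (-0.48 against -0.47), Vasp (-0.67 against -0.72), Myo1e (0.43 against 0.41) and Myo1f (0.57 against 0.53) stayed close. The first or the second library of day 5 left out also left only Actn1 and Tpm1, and the third of day 5 left Vasp besides. Without the second of day 28, Actb (at -0.99), Pfn1, Actn1 and Tpm1 stayed called and Plec was called as well, while Actg1, Vasp, Myo1e and Myo1f were not. More members were called with either library of day 14 left out, where calls over all genes also rose. With GC offsets the same 8 were called, with Actn1 at 2.17, Tpm1 at 0.997, Actg1 at -0.41, Pfn1 at -0.40, Vasp at -0.61, Myo1e at 0.47 and Myo1f at 0.61 on the log2 scale. At day 14 Actn1 was still called when the second library of day 5 or the first of day 14 was left out. Vcl was still called at -0.77 when the second of day 14 was left out, and in none of the other 6 such fits. Without that same library the difference of Actn1 was 0.83 with an adjusted p of 0.0719, and without the first of day 14 the change of Vcl was -0.43 with an adjusted p of 0.0506 (edgeR). Without 1 library of days 5 or 28 their adjusted p-values were between 0.0478 and 0.118.

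Genes of other cell types were checked, since several members are strongly expressed outside macrophages. The summed level of 9 smooth muscle, pericyte and myofibroblast genes was 5.57 to 8.17 FPKM at day 5, 5.84 and 6.93 at day 14 and 6.43 and 8.63 at day 28. In every library Myh11 and Cnn1 were at or under 0.0766 FPKM, while Acta2 ranged from 1.10 to 2.41 FPKM and Tagln from 1.40 to 3.69. Myh11, Cnn1 and Myl9 did not pass the expression filter and were not tested. None of the other genes of this list was called by edgeR at day 28. However, the pericyte gene Pdgfrb had means of 0.377 FPKM at day 5 and 0.836 at day 28, in the direction of Actn1 and Tpm1 (1.16 on the log2 scale, edgeR adjusted p = 0.0673, DESeq2 0.0455). Rgs5 had means of 0.179 and 0.499 FPKM (edgeR adjusted p = 0.352). The 6 fibroblast genes summed to 27.8 to 72.1 FPKM at day 5, 80.2 and 222 at day 14 and 34.9 and 56.1 at day 28. They were highest in the first library of day 14, and of these Col1a2 was called higher at day 14 (1.86 on the log2 scale, edgeR adjusted p = 0.035). The 5 platelet genes summed to 1481 to 2122 FPKM at day 5, 410 and 522 at day 14 and 266 and 342 at day 28, in the direction of the actins and Pfn1. Nearly all of that came from Pf4 and Ppbp, while the platelet glycoprotein genes Gp9, Gp1bb and Itga2b were at or under 1.02 FPKM. Both Pf4 and Ppbp were called lower at day 14 (-1.97 and -2.91 on the log2 scale, edgeR adjusted p = 0.0055 and 0.0157). The same held at day 28 (-2.61 and -2.06, edgeR adjusted p = 0.00054 and 0.0119). The 4 endothelial genes went from 14.6 to 26.9 FPKM in sum at day 5 to 3.64 and 6.59 at day 28. Of these Kdr and Pecam1 were called lower at day 28 (-3.02 and -1.80 on the log2 scale, edgeR adjusted p = 0.0029 and 0.0145). Neutrophil genes were highest at day 14 (495 and 514 FPKM, against 239 to 275 at day 5 and 103 and 252 at day 28), and Ly6g was not analysed here. The 4 dendritic cell genes summed to 4.78, 9.70 and 10.001 FPKM at day 5, 17.8 and 8.39 at day 14, and 14.4 and 25.2 at day 28, and of these Ccr7 was called higher at day 28 (1.43 on the log2 scale, edgeR adjusted p = 0.04). The part of these cells in the members' changes was not tested.

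The wider actin pathway was taken from 126 further genes, of which 123 were tested. From day 5 to day 28, 13 rose and 18 fell (25.2% called), with a median log2 fold change of -0.10. Of all genes tested, 15.2% were called (7.74% higher and 7.51% lower), with a median of 0.03. From day 5 to day 14, 3 rose and 5 fell (6.50% called), which is near the 4.78% of all genes called. From day 14 to day 28 none was called (edgeR, with 17 at an unadjusted p under 0.05), where 0.0622% of all genes were called, and DESeq2 called 2. The largest rise was in Itgax, the integrin alpha X chain of the CD11c marker, at 6.41, 18.3 and 6.55 FPKM at day 5, 34.1 and 170 at day 14 and 294 and 267 at day 28. The groups did not overlap, and day 14 was again split. Itgax rose by 4.77 ± 0.66 on the log2 scale to day 28 (SE, edgeR adjusted p = 0.00291). Myo10, a myosin of filopodia, went from 1.69 to 2.86 FPKM at day 5 to 7.96 and 10.03 at day 28, a rise of 2.05 ± 0.21 (SE, adjusted p = 0.000931). Among regulators, genes that rose to day 28 included the kinase Pak1 by 1.10, the podosome kinase Src by 1.10 and the GTPase Rhoc by 0.95 on the log2 scale. Among those that fell were Marcksl1 by 1.56, Aif1 by 1.01, Marcks by 0.93 and Lpxn, a paxillin relative of leukocyte podosomes, by 0.78 on the log2 scale. Aif1 codes for the actin-bundling Iba1, and the Marcks proteins tie actin to the membrane. Itgax, Myo10, Pak1 and Rhoc were called from day 5 to day 28 with each of the 7 libraries left out in turn. Without the first library of day 28 the adjusted p-values of Marcksl1, Src, Aif1, Marcks and Lpxn were 0.11, 0.116, 0.0559, 0.185 and 0.072 (edgeR).

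Other pathway genes changed early. At day 14 the WAVE subunit Cyfip1 had fallen by 0.54, the exchange factor Vav3 by 0.65, the zyxin relative Lpp by 1.18, the crosslinker Lima1 by 0.47 and the formin Fmnl2 by 0.79 on the log2 scale, and all 5 were also called lower at day 28. The 3 genes called higher at day 14 were Itgax by 3.31, Myo10 by 1.17 and Mylk. Lpp was called at day 14 with each of the 7 libraries left out in turn and Fmnl2 in all such fits but that without the first of day 5 (adjusted p = 0.0525, edgeR). The calls of Cyfip1, Vav3, Lima1, Itgax, Myo10 and Mylk at day 14 were each lost without the first library of day 5, with adjusted p-values of 0.0785 to 0.121, and without the second of day 14 the difference of Itgax was 1.72. Mylk, the kinase of smooth muscle myosin, stayed at or under 0.298 FPKM, with 4 to 86 fragments a library. Srf, which codes for serum response factor, was at 29.8, 23.7 and 34.3 FPKM at day 5, at 19.0 and 18.9 at day 14, and at 13.8 and 17.1 at day 28. Its groups did not overlap, and it fell by 0.91 ± 0.17 on the log2 scale to day 28 (SE, edgeR adjusted p = 0.00876); without the first library of day 28 the change was -0.76 with an adjusted p of 0.0944. Its cofactors Mkl1 and Mkl2 were not called. Of the 3 members with a CArG box, Actg1 was called lower at day 28, Myo1e higher at day 28 and Vcl lower at day 14 (edgeR). Whether serum response factor had a part in these changes was not tested.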

How the data were processed

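RNASeq libraries were made from 25 ng total RNA after polyA+ isolation (NEBNext Ultra). Per the submitters' processing notes, the authors used cutadapt 1.8, TopHat2 2.0.13, Cuffdiff 2.2.1 and mm10. The deposited expected counts are the fragments that Cuffdiff estimated per gene, the deposited scaled signal is these fragments times 1 factor per library, and the FPKM values of the authors are per transcript length and library size. Strand and multiple mapping settings were not stated, and 8 values that the authors' software marked as failed were kept.

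After rounding to whole fragments, the expected counts were fitted in edgeR 4.0.16 under R 4.3.3. The fit used TMM scaling, filterByExpr on time point, a quasi-likelihood F test and all 7 libraries, with time point as its single factor. Benjamini-Hochberg adjustment was over all 12858 genes tested per comparison. SE is the log2 fold change divided by the square root of F. Alternatives used DESeq2 1.42.0, limma 3.58.1 on log2(FPKM + 1) and log2(FPKM + 0.1), other size factors, no filter, 2 time points, a replicate block, an adjusted p of 0.01, and each library left out. The scaled signal gave the Cuffdiff factors of 1 alternative. GC offsets (12293 genes with a GC content, 95.6%) and a swapped block were added after seeing the data. Tests were tested on simulated data.

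Members and lists were chosen with earlier results of these data known. Values in each library are given for the actins and every called member. Pathway genes are named where called at day 14, or as the 10 with the largest change among those called from day 5 to day 28 with a mean of at least 5 FPKM. Gene positions are those of GENCODE vM21 on GRCm38, and promoters are from RefSeq. Depth was 18027190 to 35247116 fragments per library, and a member had 155 to 169429 of them in a library. Python 3.11.15 with pandas 2.3.3, numpy 2.4.6 and matplotlib 3.10.9 was used for tables and plots.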

Additional observations from a re-analysis of the deposited data

How the results depend on the processing

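The limits come mainly from 2 or 3 libraries a time point. Calls over all genes also moved with the setting and with a library left out. From day 5 to day 28 calls over all genes were 1960 of 12858 in the main fit and 2371 of 17299 with DESeq2. They were 2778 of 12594 with 2 time points only, 735 with the replicate block and 1579 with the swapped block. From day 5 to day 14 they were 614 in the main fit, 1302 with DESeq2, 315 with 2 time points only and 6 with the replicate block. Against 2 members called from day 5 to day 14, DESeq2 gave 4, the swapped block 1, and the 3 limma fits, the fit of 2 time points only, the replicate block and an adjusted p under 0.01 gave 0. Leaving out each library gave 0 to 4. Against 0 members called from day 14 to day 28, DESeq2 gave 1 and the fit with no expression filter 2, and leaving out each library gave 0 to 2. Against 8 members called from day 5 to day 28, DESeq2 gave 15, the 2 time points only 16, limma with no filter 4, the replicate block 3, the swapped block 4 and an adjusted p under 0.01 gave 2, and leaving out each library gave 2 to 15. For the other pathway genes from day 5 to day 14 (8 called), DESeq2 gave 23, no expression filter 22, limma 3 with a pseudocount of 1, 4 with 0.1 and 0 with no filter, the 2 time points only 4, the replicate block 0, the swapped block 5 and an adjusted p under 0.01 gave 1, and leaving out each library gave 2 to 21. From day 14 to day 28 (0 called), DESeq2 and no expression filter each gave 2, and leaving out each library gave 0 to 10. From day 5 to day 28 (31 called), the replicate block gave 16 and an adjusted p under 0.01 gave 13, and leaving out each library gave 7 to 44. The median log2 fold change of the members moved from -0.23 to -0.13 at day 14 and from -0.19 to -0.11 at day 28 with GC offsets. Leaving out each library gave -0.094 to 0.0015 for day 14 to day 28 and -0.26 to -0.17 for day 5 to day 28. The cause of these shifts was not tested, apart from the stricter threshold, the fewer samples and the larger number of genes adjusted for, which are part of how those fits were made.

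The replicate numbers share no stated animal or day. Deviations of libraries with the same number correlated at 0.402 and 0.058 between days 5 and 14, at -0.138 between days 14 and 28, and at -0.049 and 0.029 between days 5 and 28 (across 7556 genes), so the numbers were not taken as pairs. With the replicate block Actn1, Tpm1 and Vasp were called from day 5 to day 28. Swapping the numbers of day 28 in the block gave 4 members and 28 other pathway genes there. No member or named pathway gene called in a comparison changed direction in it under any alternative run. Other called genes were not checked for this. Fitted differences near 0, such as those of Actn4 and Flna at day 28, took either sign. A fit that leaves 1 library in a group assumes that it varies like the other groups.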
